A study of Mus musculus with 24 samples.

Results

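Il3 and Csf2 are neighbouring genes on mouse chromosome 11 that encode the cytokines IL-3 and GM-CSF. They were followed array by array in CD4+ T cells primed under Th1 conditions. The members are all probe sets that the array's gene table pairs with Il3 or Csf2 as their single symbol. There was 1 for each gene, 1450566_at for Il3 and 1427429_at for Csf2, out of 45101 probe sets and 18193 genes with a value.

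The cells were CD4+ T cells of 2D2 mice on the C57BL/6 background, and all 8 groups carried the same transgenic T cell receptor. They were stimulated with plate-bound antibodies to CD3 and CD28 for 48 h, expanded for 2 days, and taken either after 4 h on the same antibodies (activated) or without that restimulation (resting). In each state 1 group had been grown with 0.5 µM I-BET-762, 1 with 0.25 µM I-BET-762, 1 with Control-768 and 1 with the solvent DMSO, with 3 biological replicates numbered 1 to 3 in each. I-BET-762 occupies the bromodomains of BET proteins, readers of histone acetylation that help to start transcription. Control-768 is a control substance. The age of the mice, the number of animals behind a replicate, the concentration of Control-768 and whether the compounds were present during the restimulation are not given in the sources used here. Because a single receptor was stimulated by antibody in culture, the groups describe cultured Th1 cells and not a response to antigen.

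IL-3 is a growth factor for blood progenitors, mast cells and basophils, and GM-CSF is a growth and activating factor for macrophages, granulocytes and dendritic cells. Activated T cells are a main source of both, and GM-CSF from T cells is known as a mediator of autoimmune inflammation of the nervous system. The genes lie side by side, apart from the Th2 cytokine genes Il4, Il13 and Il5 of the same chromosome arm, and in human T cells they are known to respond to the T cell receptor through enhancers bound by NFAT, AP-1 and RUNX factors. Each cytokine has its own receptor alpha chain, encoded by Il3ra and Csf2ra, which pairs with the beta common chain encoded by Csf2rb.

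The Il3 promoter is shown because Il3 is the member that was lower with I-BET-762 in both states in the fit with the replicate block. These are the 250 bases before its start in RefSeq's table on build GRCm38.p6, at chr11:54267280-54267529 on the minus strand, 5′ to 3′. Capitals mark, in order, a match to the NFAT core on the other strand, a RUNX motif, a GC box on the other strand and a TATA box.
Il3 promoter: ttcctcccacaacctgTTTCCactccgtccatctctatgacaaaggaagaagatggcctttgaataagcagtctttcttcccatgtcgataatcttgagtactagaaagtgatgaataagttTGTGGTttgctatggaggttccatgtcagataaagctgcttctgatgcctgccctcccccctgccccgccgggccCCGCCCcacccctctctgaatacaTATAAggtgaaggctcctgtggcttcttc
The NFAT core was searched on both strands as GGAAA and began at position -234 from the start. It is found in 55.6% of the 32851 promoter windows of the same length, so a match is common. The RUNX motif TGTGGT began at -128 and occurs in 14.0% of windows, the GC box GGGCGG at -53 and in 32.7%, and the TATA box TATAA at -29 and in 22.8%. A CK-1 cytokine element began at -114 and occurs in 11.2% of windows. The kappa B motif matched at -58 and -57, overlapping the GC box, and occurs in 45.8%. The AP-1 letters TGANTCA, found in 6.75% of windows, did not occur in this one. A match is a run of letters and not a measured binding site. No window is shown for Csf2, because RefSeq lists 2 transcripts for it and the table does not say to which its window belongs.

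In activated cells both genes gave clear signals on all 12 arrays. Intensities are linear array values, and replicates are given in the order of their numbers. Il3 was at 204, 275 and 573 with 0.5 µM I-BET-762, at 329, 248 and 2222 with 0.25 µM, at 334, 1219 and 5785 with Control-768, and at 1231, 773 and 6079 with DMSO. The replicate numbered 3 was the highest in each of the 4 groups. The I-BET-762 and control groups overlapped across numbers, while within each number both I-BET-762 arrays lay below both control arrays. Csf2 was at 166, 162 and 741 with 0.5 µM I-BET-762, at 206, 154 and 1572 with 0.25 µM, at 249, 558 and 4185 with Control-768, and at 581, 365 and 4442 with DMSO. Csf2 showed the same order within each number, and again replicate 3 was the highest of its group.

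In resting cells the genes differed in level. Il3 was at 6.94, 7.86 and 3.44 with 0.5 µM I-BET-762, at 2.53, 6.00 and 2.61 with 0.25 µM, at 149, 171 and 3.54 with Control-768, and at 158, 191 and 9.77 with DMSO. Replicates 1 and 2 of the control groups thus had a signal that the I-BET-762 arrays lacked, and replicate 3 had none in any group. Between 28.8% and 30.8% of probe sets on an array lay under 16, so values there have no reliable order. Csf2 was at 8.92, 12.2 and 14.4 with 0.5 µM I-BET-762, at 22.7, 19.5 and 15.2 with 0.25 µM, at 47.1, 26.3 and 21.1 with Control-768, and at 41.7, 37.6 and 7.54 with DMSO. All 12 resting values of Csf2 were dim.

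**Figure D1:**
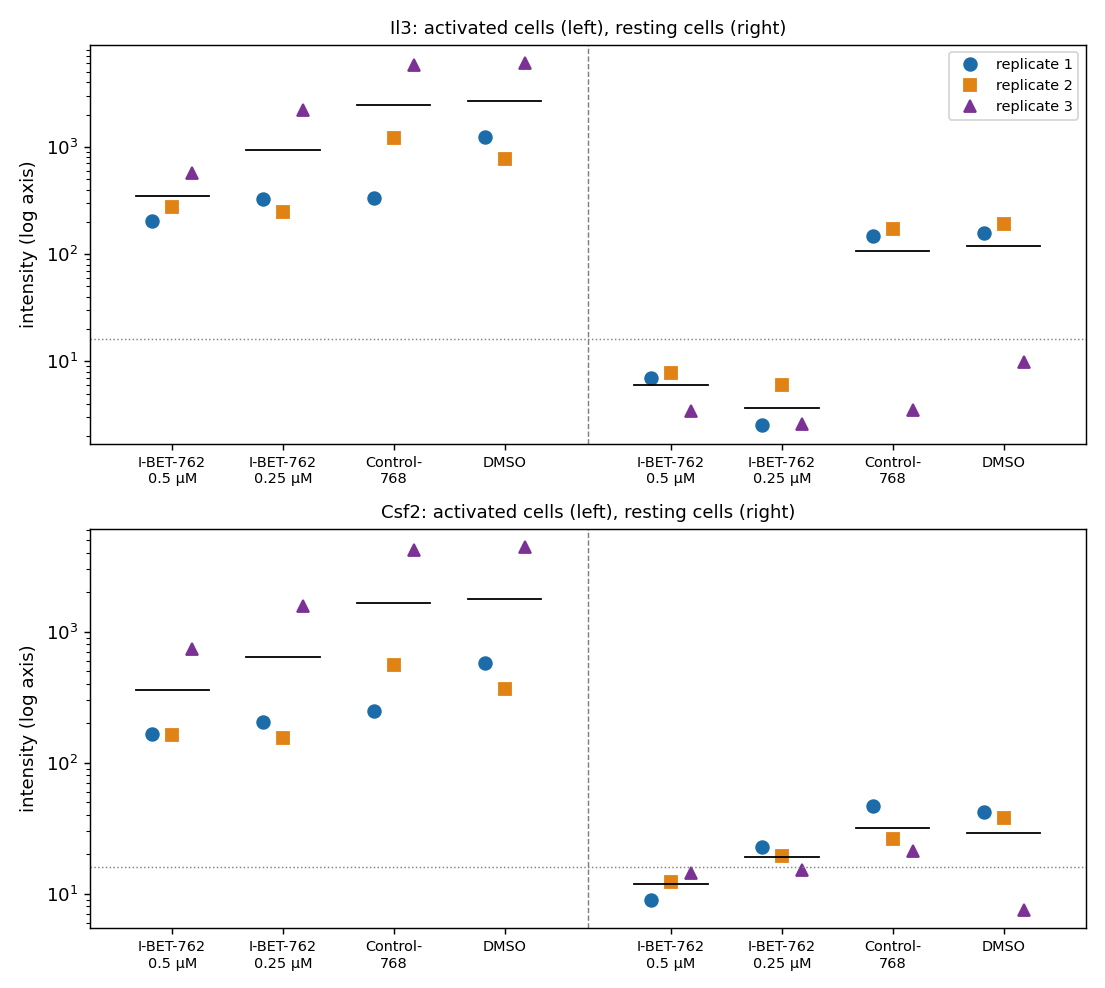
Intensity (log axis) of Il3 and Csf2 on each of 24 arrays, with symbols for the replicate number and a bar at the mean of 3; the dotted line is at 16. In activated cells the arrays numbered 3 are the highest of every group, and in resting cells Il3 stands clear of 16 only on the control arrays numbered 1 and 2.

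The means followed the same order for both genes in activated cells. Il3 averaged 351 ± 196 with 0.5 µM I-BET-762, 933 ± 1117 with 0.25 µM, 2446 ± 2925 with Control-768 and 2695 ± 2940 with DMSO (SD, n = 3 each). Csf2 averaged 357 ± 333, 644 ± 804, 1664 ± 2189 and 1796 ± 2294 in the same order of groups (SD, n = 3 each). No neighbours in this order differed beyond their spread. In resting cells Il3 averaged 6.08 ± 2.33 with 0.5 µM I-BET-762, 3.71 ± 1.98 with 0.25 µM, 108 ± 91.1 with Control-768 and 120 ± 96.6 with DMSO. Csf2 averaged 11.9 ± 2.77, 19.1 ± 3.78, 31.5 ± 13.7 and 28.9 ± 18.6 in that order.

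Restimulation raised both cytokine genes under each of the 4 compounds. Differences from here on are on the scale log2(intensity + 16), which understates changes of dim genes, and p-values are from limma, adjusted by the Benjamini-Hochberg method over 18193 genes, with calls at an adjusted p under 0.05. Il3 in activated over resting cells rose by 3.93 ± 1.05 (SE) with 0.5 µM I-BET-762 (adjusted p = 0.00932), by 4.90 ± 1.05 with 0.25 µM (adjusted p = 0.00392), by 4.01 ± 1.05 with Control-768 (adjusted p = 0.00996) and by 4.22 ± 1.05 with DMSO (adjusted p = 0.00695). Csf2 rose by 3.39 ± 0.95 (adjusted p = 0.0123), 3.48 ± 0.95 (adjusted p = 0.0173), 4.22 ± 0.95 (adjusted p = 0.00341) and 4.59 ± 0.95 (adjusted p = 0.00178) in the same order. All 3 activated arrays lay above all 3 resting arrays of their compound for both genes. Of all genes, 23.2% passed in 1 direction or the other with 0.5 µM I-BET-762, 14.4% with 0.25 µM, 20.0% with Control-768 and 20.8% with DMSO. Because resting values lay near background, the sizes depend on the constant: the Il3 difference with 0.25 µM was 6.99 with 1 in place of 16 and 3.27 with 64. In these bulk samples, more cells making a transcript and more transcript per cell cannot be told apart.

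Some of these calls were lost when a single array numbered 3 was left out. Without activated 0.5 µM I-BET-762 replicate 3 the adjusted p was 0.0527 for Il3 and 0.0882 for Csf2. Without activated 0.25 µM replicate 3 it was 0.127 for Csf2, and without resting 0.25 µM replicate 3 it was 0.0538. For Il3 it was 0.0778 without activated Control-768 replicate 3, 0.0664 without resting Control-768 replicate 3 and 0.0521 without activated DMSO replicate 3. Without replicate 1 of every group 7 of the 8 rises missed the threshold (adjusted p 0.0563 to 0.154), and without replicate 2 of every group 6 of 8 did (0.0558 to 0.102). Without replicate 3 of every group all 8 rises stayed calls. Values stayed higher in activated cells each time. Number by number, the Il3 difference under Control-768 was 1.08, 2.72 and 8.21, and under DMSO 2.84, 1.93 and 7.89, for replicates 1, 2 and 3. Replicate 3 combined the brightest activated arrays with resting arrays at background.

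I-BET-762 was tested against the controls in activated cells. With both concentrations set against both controls, Il3 was at -1.82 ± 0.74 (limma adjusted p = 0.409) and Csf2 at -1.46 ± 0.67 (adjusted p = 0.514), in a comparison where 1.20% of genes passed. Within each state, samples that share a number deviated together, so the same contrast was also fitted with the replicate number as a block. There Il3 fell by 1.82 ± 0.44 (adjusted p = 0.0255) and Csf2 fell by 1.46 ± 0.24 (adjusted p = 0.00148), with 4.15% of genes passing. With the block and a constant of 1, chosen after seeing the data, the adjusted p was 0.116 for Il3, so that its call was lost, and 0.0214 for Csf2; with 64 it was 0.00461 and 0.000459. The fall with the block was not a call in every subset either: without replicate 2 of every group it had an adjusted p of 0.216 for Il3 and 0.0537 for Csf2, and for Il3 0.163 without replicate 1. Without replicate 3 of every group the limma adjusted p was 0.0202 for Il3 (-1.55) and 0.0147 for Csf2 (-1.20), with no block and 4.29% of genes passing, and with a constant of 1 it was 0.0534 for Il3 and 0.0396 for Csf2.

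An exact permutation test was run on each gene alone. Over 6 against 6 activated arrays the two-sided exact p was 0.0628 for Il3 and 0.154 for Csf2, where 0.00217 is the smallest possible. When arrays were exchanged within a replicate number only, the exact p was 0.00926 for both genes, the smallest that 216 arrangements allow. The difference between both I-BET-762 and both control arrays was -1.26, -1.83 and -2.37 for Il3 and -0.98, -1.42 and -1.98 for Csf2 in numbers 1, 2 and 3, and was negative in 3 of 3 for each gene.

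The single concentrations gave wider intervals. At 0.5 µM over Control-768, Il3 was at -2.02 ± 1.05 (adjusted p = 0.691, and 0.0988 with the block) and Csf2 at -1.57 ± 0.95 (adjusted p = 0.773), in a comparison where 0.726% of genes passed. With the block Csf2 fell by 1.57 ± 0.34 (adjusted p = 0.0150), with 3.35% of genes passing; without replicate 2 of every group that adjusted p was 0.193, without replicate 3 it was 0.144, and with a constant of 1 it was 0.0961. With a constant of 64 and the block the adjusted p of Il3 was 0.0283. On the arrays themselves, the Il3 intensity with 0.5 µM was 1.64 times lower than with Control-768 in number 1, 4.43 times lower in number 2 and 10.1 times lower in number 3. At 0.25 µM over Control-768, Il3 was at -1.21 ± 1.05 and Csf2 at -1.14 ± 0.95 (adjusted p = 1 for each, and 0.724 and 0.262 with the block), in a comparison where 0.0715% of genes passed. Leaving out replicates moved these values widely: Il3 ranged from -3.00 to -0.97 at 0.5 µM and from -2.19 to -0.16 at 0.25 µM, and Csf2 from -2.42 to -0.42 at 0.5 µM and from -2.15 to 0.01 at 0.25 µM.

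The step between the concentrations was not resolved for either gene. In activated cells the 0.5 µM group over the 0.25 µM group was at -0.81 for Il3 (95% interval -3.00 to 1.38) and at -0.43 for Csf2 (-2.40 to 1.55). Control-768 over DMSO was at -0.42 for Il3 (-2.61 to 1.77) and at -0.22 for Csf2 (-2.20 to 1.75). In replicate 1 alone the activated Control-768 array held 334 for Il3, against 1231 on the DMSO array, and in replicates 2 and 3 the controls were nearer. The intervals given here, without the block, include 0 and also differences of several fold. With the block, Control-768 over DMSO spanned -1.74 to 0.90 for Il3 and the narrower -0.93 to 0.49 for Csf2.

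In resting cells Il3 was lower with I-BET-762 in the fit with the block, and the dim Csf2 was not called there. The pooled Il3 difference was -2.13 ± 0.74 (limma adjusted p = 0.221), in a comparison where 1.85% of genes passed. With the block Il3 fell by 2.13 ± 0.44 (adjusted p = 0.00707), with 5.67% of genes passing, and this call was lost without replicate 1 (adjusted p = 0.236) or replicate 2 (adjusted p = 0.233) of every group. All 6 I-BET-762 values lay under 16, so the size of this difference is set by the added constant: it was -3.40 with 1 and -1.18 with 64. With the block it passed at both (adjusted p = 0.00331 and 0.0387), and without the block at neither (0.106 and 0.564). Number by number the difference was -3.04, -3.10 and -0.24 with 16. Without replicate 3, where Il3 was at background in all groups, Il3 fell by 3.07 (adjusted p = 0.000242, no block), with 5.58% of genes passing; with a constant of 1 it was at -4.70 and with 64 at -1.73 (adjusted p = 0.000254 and 0.00228). Over all arrays, Il3 over Control-768 was at -1.94 with 0.5 µM (limma adjusted p = 0.548) and at -2.105 with 0.25 µM. Neither passed, with or without the block. Only without replicate 3 of every group was Il3 called lower than with Control-768 at both concentrations. There it was at -2.91 with 0.5 µM (adjusted p = 0.00382, 4.05% of genes passing) and at -3.12 with 0.25 µM (adjusted p = 0.0183, 0.440% passing). With a constant of 64 these were at -1.65 (adjusted p = 0.0290) and at -1.71 (adjusted p = 0.0892). An exact permutation test over the 12 resting arrays, added after the values were seen, gave p = 0.0152 for Il3 and 0.0671 for Csf2, and 0.00926 and 0.0556 within numbers. Csf2 was at -0.50 ± 0.67 (adjusted p = 0.915, and 0.308 with the block), and without replicate 3 and with a constant of 1 at -1.27 (adjusted p = 0.0340). Number by number the Csf2 difference was -0.96, -0.59 and 0.06, so that, as for Il3, number 3 did not share the larger fall. In numbers 1 and 2 every I-BET-762 value of Csf2 lay below every control value, all of them dim.

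Whether the response to I-BET-762 differed between states was not resolved. The state interaction at 0.5 µM over Control-768 was -0.08 for Il3 (95% interval -3.17 to 3.02) and -0.83 for Csf2 (-3.62 to 1.96). At 0.25 µM it was 0.90 for Il3 (-2.20 to 3.99) and -0.73 for Csf2 (-3.53 to 2.06). For Il3 the direction turned with the constant, its resting I-BET-762 values lying at background: at 0.5 µM the interaction was 0.79 with 1 and -0.80 with 64. None of the 4 passed in limma with or without the block, and the lowest adjusted p with the block was 0.687, for Csf2 at 0.5 µM.

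**Figure D2:**
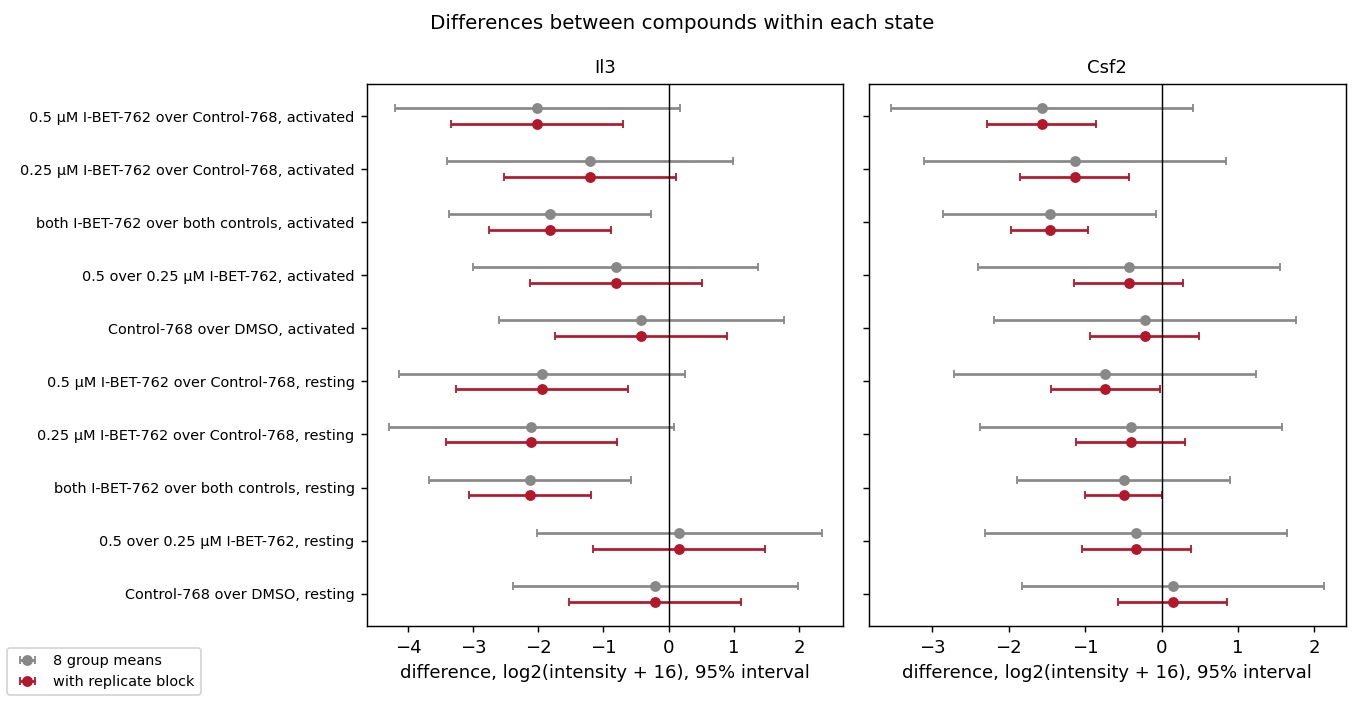
Difference in log2(intensity + 16) with its 95% interval for each comparison of compounds, Il3 on the left and Csf2 on the right; grey is the fit of 8 group means, red the fit with a replicate block. The estimates are the same in both fits and the red intervals are shorter, so that the pooled difference in activated cells spans -2.75 to -0.89 for Il3 and -1.97 to -0.96 for Csf2 with the block.

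Replicate number moved both genes more than most. In activated cells, the SD within a group averaged 1.76 for Csf2 and 1.57 for Il3 on the log2 scale, ranks 3 and 6 of 18193 genes, against a median of 0.215. Arrays numbered 3 exceeded those numbered 1 and 2 by 2.94 for Csf2 and 2.47 for Il3, ranks 2 and 9 among all genes. Of 20 other measured cytokine genes 13 were higher in number 3 and 7 lower, between -0.69 for Lta and 2.64 for Il13, at a median of 0.16 against -0.02 over all genes. Il4, Il10 and Il2 were among the higher ones, at 1.93, 1.83 and 1.80, while Ifng was at 0.15 and Osm at -0.55. In resting cells the arrays numbered 3 were 1.61 lower for Il3 and 0.44 lower for Csf2. The difference between the 3′ and 5′ Gapdh control probe sets, a sign of RNA integrity, was 0.149 to 0.312 on the activated arrays numbered 3 and -0.0169 to 0.0994 on those numbered 1 and 2. On the resting arrays it was -0.0604 to -0.0022 in number 3 and -0.0347 to 0.0922 in numbers 1 and 2. Its part in the cytokine values was not tested.

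The genes tracked each other closely across activated arrays. Over the 8 activated arrays numbered 1 and 2, Pearson's r between Il3 and Csf2 was 0.983 (exact permutation p = 0.000322) and Spearman's rho 0.929 (exact permutation p = 0.00223). Pearson's r was 0.938 without the 2 arrays farthest from the median. The permutation exchanged the 8 arrays freely, although they differ in compound and number. The difference with I-BET-762 that both genes share is therefore part of these values, and they do not measure tracking apart from it. The arrays numbered 3 form a cluster of their own, so no value is pooled over 12. After subtraction of each number's mean, a step added after the values were seen, Csf2 was the gene most like Il3, and Il3 the gene most like Csf2, of 10402 compared (r = 0.990 over 12 arrays that share their numbers). The differences between compounds were left in here too. Rxra, which encodes a retinoid receptor, came next for both (r = 0.965 with Il3 and 0.973 with Csf2), and Inhba, an activin subunit gene, had rank 4 for both. At rank 3 stood Tnfsf11, the gene for RANKL, for Il3 (r = 0.958), and Cd70, the ligand of CD27, for Csf2 (r = 0.955). Rank 5 went to Srxn1 for Il3 and to Usp54 for Csf2.

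Without that subtraction the order of likeness followed the replicate numbers too. Over the 12 activated arrays Il3 was most like Srxn1 (r = 0.976), Csf2 (0.971), the cytokine subunit gene Il23a (0.961), Tbl1xr1 and Cdc42ep3. Csf2 was most like Timp1, an inhibitor of matrix proteases (r = 0.977), Srxn1 (0.973), Il3 (0.971), Atad2b and, at rank 6 after a placeholder symbol, Il23a (0.965). Over all 24 arrays, which also share the step between states, Il3 was most like the chaperone gene Bag3 (r = 0.959), Itgav, Csf2 (0.946), Elk3 and Nol4l. Csf2 was most like Timp1 (0.983), Il23a, the chemokine gene Ccl1, Cd70 and Fosl1, with Il3 at rank 14. These values describe the arrays and carry no p.

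**Figure D3:**
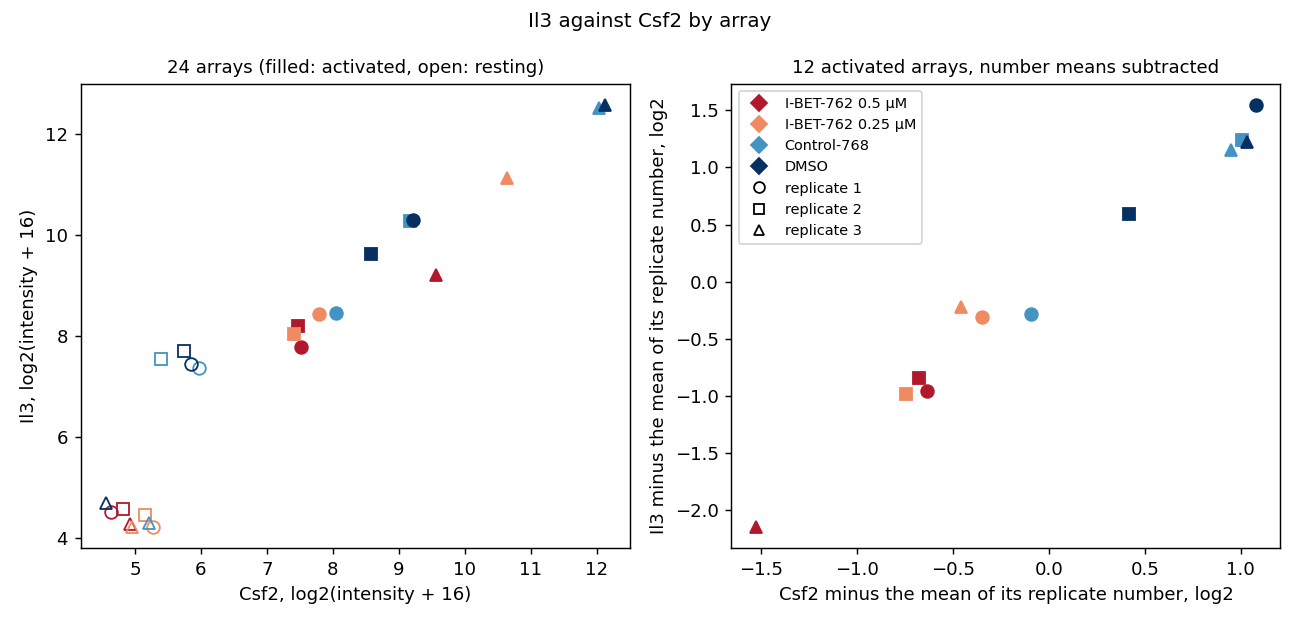
Il3 against Csf2 by array in log2(intensity + 16): left, 24 arrays with activated ones filled and resting ones open; right, the 12 activated arrays after subtraction of each replicate number's mean. Colours give the compound and symbols the replicate number. On the right all 6 I-BET-762 arrays lie below 0 for both genes, as does 1 of 6 control arrays, the Control-768 array numbered 1.

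The genes that flank the pair were read in their order on the chromosome. Of 15 measured neighbours, from Kif3a to Rapgef6, only Acsl6 passed with both concentrations over both controls in activated cells, where 1.20% of all genes passed. The median difference was 0.01 over the 15 and 0.00 over all genes. Acsl6, which encodes a long-chain acyl-CoA synthetase and is the next protein-coding gene beyond Il3, was at 82.6, 51.2 and 38.0 with 0.5 µM I-BET-762 and at 151, 171 and 153 with 0.25 µM. It was at 519, 551 and 512 with Control-768 and at 536, 588 and 439 with DMSO. No activated I-BET-762 array reached the lowest activated control array. Acsl6 fell by 2.27 ± 0.44 (limma adjusted p = 0.00928) in activated cells. In resting cells it fell by 2.38 ± 0.44 (adjusted p = 0.00417), and number by number the difference was -3.02, -2.75 and -1.38. There the 0.25 µM arrays numbered 1 and 2, at 82.0 and 109, lay above the Control-768 and DMSO arrays numbered 3, at 70.5 and 71.8. A second probe set of Acsl6, dimmer on average, was at 0.04 in activated and at -0.32 in resting cells, so the probe sets disagree.

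With the replicate block 3 of 15 neighbours fell and 1 rose in activated cells, in a fit where 4.15% of all genes passed. P4ha2, which encodes a subunit of collagen prolyl hydroxylase and lies next to Csf2 on the other side, fell by 0.94 ± 0.20 (adjusted p = 0.0140), and Irf1, an interferon regulatory factor, fell by 0.83 ± 0.14 (adjusted p = 0.00166). Il13, the Th2 cytokine gene, rose by 1.92 ± 0.15 (adjusted p = 1.53e-06), against an adjusted p of 0.193 without the block. Il13 was at 1643, 789 and 5738 with 0.5 µM I-BET-762 and at 895, 215 and 2638 with 0.25 µM. It was at 205, 125 and 1170 with Control-768 and at 209, 116 and 1314 with DMSO. Like Il3 and Csf2, Il13 was brightest in replicate 3 of every activated group, but within each number the I-BET-762 arrays were the higher ones. Il4 was at 0.65 ± 0.18 (adjusted p = 0.0551 with the block) and Il5 at -0.24 ± 0.16 (adjusted p = 0.523). Beyond Acsl6, Meikin was at 0.03, Fnip1 at 0.07 and Rapgef6 at 0.09. In resting cells only Acsl6 passed with the block, where 5.67% of all genes passed, with P4ha2 at -0.67 ± 0.20 (adjusted p = 0.0717).

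**Figure D4:**
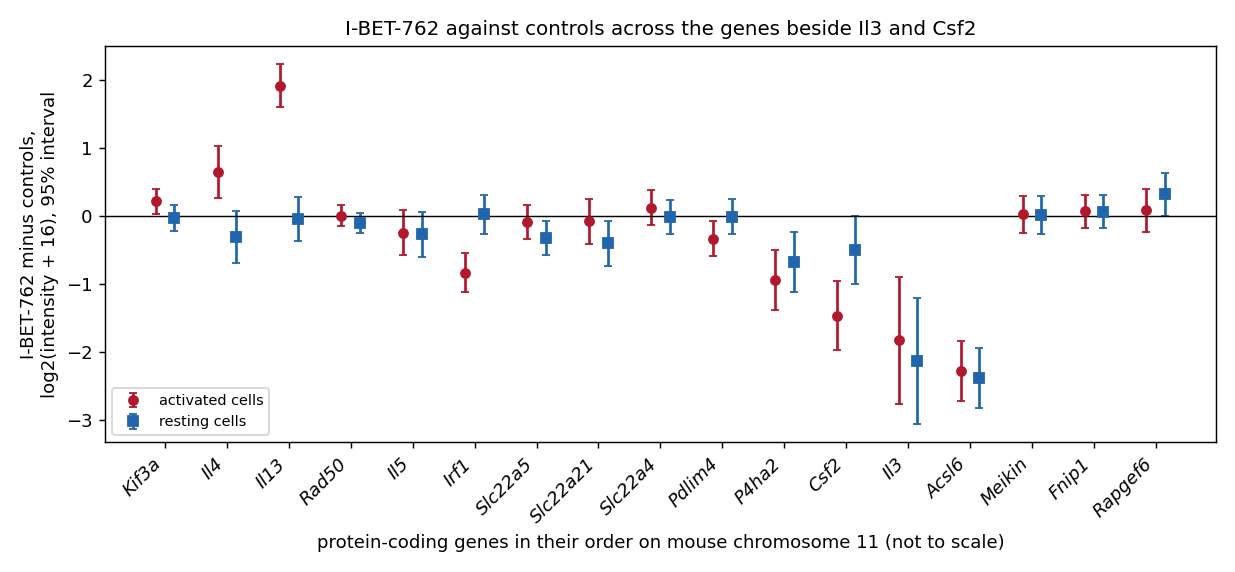
Difference between both I-BET-762 and both control groups, in log2(intensity + 16) with 95% intervals from the fit with the replicate block, for Il3, Csf2 and 15 neighbours in chromosome order (activated cells red, resting cells blue). In activated cells P4ha2, Csf2, Il3 and Acsl6, which follow each other, lie at -0.94, -1.46, -1.82 and -2.27, and Il13 at 1.92. Irf1, apart from these, lies at -0.83. A second, dimmer probe set of Acsl6, which is not drawn, was at 0.04.

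Under Control-768, where 20.0% of all genes passed on restimulation, 2 of 15 neighbours did. Il13 rose by 3.58 ± 0.87 (adjusted p = 0.00606) and Rad50, a DNA repair gene between Il13 and Il5, fell by 0.80 ± 0.14 (adjusted p = 0.000415), while the other 13 of 15 did not pass. With 0.5 µM I-BET-762, Il4 also rose, by 2.10 ± 0.63 (adjusted p = 0.0196), and P4ha2 fell by 1.83 ± 0.57 (adjusted p = 0.0244). Under Control-768 Acsl6 was at 519, 551 and 512 on the activated arrays, against 489, 500 and 70.5 on the resting arrays, so that replicate 3 was low in resting cells as it was for Il3.

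The receptor genes did not pass with I-BET-762. None of 5 (Il3ra, Csf2ra, Csf2rb, Csf2rb2 and Il5ra) passed in the pooled comparison of either state, with or without the block. Without it none had an unadjusted limma p under 0.05. Of all genes, 1.20% passed in activated and 1.85% in resting cells without the block, and 4.15% and 5.67% with it. A count of none among 5 is thus close to the share over all genes. Il3ra ranged from 120 to 211 on the I-BET-762 arrays and from 130 to 184 on the control arrays of activated cells, and Csf2ra from 116 to 188 and from 114 to 136. Csf2rb, the shared chain, was dim, at 13.3 to 26.7 on activated I-BET-762 arrays and 7.13 to 26.3 on activated control arrays. In activated over resting cells under Control-768, where 20.0% of all genes passed, none of the 5 did, also unadjusted. Under DMSO, Il3ra fell by 0.52 ± 0.18 (adjusted p = 0.0492) and the dim Csf2rb fell by 0.48 ± 0.16 (adjusted p = 0.0428), where 20.8% of all genes passed.

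Other genes of the pathway responded to restimulation under Control-768, where the median over all genes was -0.03 and 20.0% of them passed. Of 26 measured transcription regulators of the locus, 8 rose and 2 fell (median 0.27): Batf, an AP-1 family member, rose by 2.08 ± 0.19 (adjusted p = 1.09e-06), Fosl1, another, by 2.63 ± 0.40 (adjusted p = 0.000148) and Egr2 by 2.95 ± 0.51 (adjusted p = 0.000463). Of 20 other cytokines 9 rose and the other 11 did not pass (median 1.08). Among these, Il2, whose product drives T cell growth, rose by 7.48 ± 0.60 (adjusted p = 2.65e-07). Of 15 genes of signalling from the beta common receptor 5 rose and 1 fell (median 0.31), with Stat5a, a transcription factor of the pathway, rising by 2.88 ± 0.25 (adjusted p = 5.48e-07). Of 12 genes of cytokine mRNA decay 3 rose and 2 fell (median 0.06), with Zc3h12a, the RNase Regnase-1, rising by 2.93 ± 0.38 (adjusted p = 3.66e-05). Of 15 activation markers 10 rose and the other 5 did not pass (median 1.28).

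With I-BET-762 in activated cells the calls in the same lists differed between the fits. Without the block, where 1.20% of all genes passed, of the cytokines 1 of 20 passed: Il24, of the IL-10 family, fell by 1.63 ± 0.25 (adjusted p = 0.00113). None of the 26 regulators, 15 signalling genes, 12 decay genes or 15 activation markers passed, and at an unadjusted p under 0.05 the counts were 2, 1, 0 and 0. Among the regulators, Jun was at 0.55 ± 0.17 (adjusted p = 0.189) and Gata3, the Th2 factor, at 1.05 ± 0.45 (adjusted p = 0.452), both in the fit without the block. With the block, where 4.15% of all genes passed, 5 of 26 regulators rose and 1 fell, 2 of 20 cytokines rose and 2 fell, 1 of 12 decay genes rose, and no signalling gene or activation marker passed. Gata3 then rose by 1.05 ± 0.11 (adjusted p = 2.3e-05).

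Markers of other cells were checked against the label. The 7 measured CD4 T cell markers were bright (Cd3d had a median of 7030 and Cd4 of 635). All 5 measured B cell genes, all 7 mast cell and basophil genes and 7 of 8 myeloid genes stayed under 64 on every array, Csf1r being the exception. Of the CD8 genes Cd8a had a median of 78.7 and Cd8b1 of 533. The 5 measured genes of the NK cell and ILC list summed to 297 to 863 on activated I-BET-762 arrays and 1087 to 1298 on activated control arrays, moving with the compound in the direction of Il3 and Csf2. In resting cells they summed to 267 to 924 (median 408) on I-BET-762 arrays and 601 to 1039 (median 702) on control arrays. With the block Rora, Klrk1, Eomes and Klre1 fell in activated cells, 4 of 5, where 4.15% of all genes passed. Rora and Klrk1 fell in resting cells, where 5.67% of all genes passed. Rora was the brightest (median 514), Eomes reached 404 and Klrk1 228 on their highest arrays, and Ncr1 and Klre1 stayed under 64 on every array. The 5 dendritic cell genes summed to 222 to 320 on I-BET-762 arrays and 196 to 333 on control arrays in activated cells, and to 121 to 326 and 124 to 212 in resting cells, with Zbtb46 the only one to reach 64. The part of these lists in the Il3 and Csf2 values was not tested.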

How the data were processed

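The deposited files give linear intensities, 1 per probe set. Per the labels' protocols, RNA was amplified for 2 rounds and biotin labelled; the authors' summarization and normalization are not given in the sources used here. Medians per array ran from 37.4 to 44.4. Precision is limited by the number of arrays.

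The intensities were taken as log2(intensity + 16). After removal of 64 control probe sets, 34945 had a single symbol, 932 several and 9160 none; each gene used its single-symbol probe set with the highest mean, which gave 18193 genes. All 24 arrays entered a linear model of 8 group means in limma 3.58.1 (R 4.3.3), with 16 comparisons, two-sided tests and adjustment over all genes; the script was tested on simulated data. Single genes also had exact permutation tests over arrays.

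Replicate numbers were tested as pairs through correlations of deviations from the group means. Within a state all 36 same-number pairs lay above 0.1 (0.154 to 0.697), and across states the lowest was -0.0483. Different numbers of a state had a median of -0.231. Deviations cancel out within a group, so that negative value follows from the positive same-number values and is no separate reference. A block for the number was therefore fitted within states as an alternative, and its value stands beside each result of Il3 and Csf2 whose call it changes. For genes of the other lists it is not always given. Alternatives also covered the constant, quantile normalization, dim genes, all probe sets, only the groups compared, and replicates left out.

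The members and lists were chosen with earlier results of these data known. Every measured receptor and neighbour could be named; of other lists, at most 4 passing members, by smallest adjusted p, under Control-768 restimulation and in the pooled activated comparison, or else the 2 with the smallest p. Likeness named the 5 genes with the highest r, placeholder symbols passed over, among genes reaching 64 on 3 arrays.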

Additional observations from a re-analysis of the deposited data

How the results depend on the processing

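Directions held in all alternatives for the results called in any of them. The replicate block within each state turned 4 differences into calls: Csf2 at 0.5 µM in activated cells (-1.57, adjusted p = 0.0150), the pooled difference in activated cells for Il3 (-1.82) and Csf2 (-1.46), and Il3 in resting cells (-2.13); it changed no other call of Il3 or Csf2. In that fit, calls were also made without replicate 1 of every group for Csf2 (-2.08 at 0.5 µM and -1.70 pooled, activated), and without replicate 3 for the pooled activated difference of Il3 (-1.55) and Csf2 (-1.20) and for resting Il3 (-3.07 pooled, -2.91 at 0.5 µM and -3.12 at 0.25 µM). With the block and a constant of 1 calls were made for pooled Csf2 in activated cells (-1.51) and pooled Il3 in resting cells (-3.40), and not for Il3 in activated cells (-1.86, adjusted p = 0.116); with 64 they were made for Il3 (-1.90) and Csf2 (-1.43) at 0.5 µM and Il3 (-1.71) and Csf2 (-1.33) pooled in activated cells and for pooled Il3 in resting cells (-1.18). The exact test within numbers turned the activated p of Il3 (-1.82) and Csf2 (-1.46) to 0.00926. A block shared by both states, which the pairing check does not back, gave no such call (adjusted p = 0.325 for Il3 and 0.286 for Csf2 in activated cells and 0.182 for Il3 in resting cells). With a constant of 64 the rise on restimulation missed the threshold with 0.5 µM for Il3 (2.47, adjusted p = 0.0506) and Csf2 (2.20, adjusted p = 0.0827) and with 0.25 µM for Csf2 (2.46, adjusted p = 0.0672), and with only the groups compared it did so for Il3 under Control-768 (4.01, adjusted p = 0.0689). Why was not tested, beyond the fewer arrays in the last. Leaving out replicates, in the case of replicate 3 also with a constant of 1 or 64 (chosen, like the block with these constants, after seeing the data), the Il3 rise ranged from 2.08 to 4.83 with 0.5 µM, 2.36 to 5.85 with 0.25 µM, 1.67 to 5.47 with Control-768 and 2.13 to 5.36 with DMSO, and that of Csf2 from 1.61 to 3.85, 1.51 to 4.10, 2.14 to 5.29 and 2.34 to 5.47. The pooled activated difference ranged from -2.31 to -1.30 for Il3 and -1.97 to -0.89 for Csf2, and the activated 0.5 µM difference of Csf2 from -2.42 to -0.42. In resting cells Il3 ranged from -4.70 to -1.64 pooled, -4.26 to -1.37 at 0.5 µM and -5.02 to -1.53 at 0.25 µM, and pooled Csf2 from -1.27 to -0.26. The block raised the genes called from 219 to 755 in the pooled activated comparison, from 337 to 1031 in resting cells and from 132 to 610 at 0.5 µM in activated cells. With only the groups compared 28 genes were called at 0.5 µM in activated cells. Over all probe sets restimulation called 8018, 4723, 6674 and 7124 against 4229, 2628, 3640 and 3782 over genes, with 0.5 µM, 0.25 µM, Control-768 and DMSO. The totals differ, 45101 probe sets less 64 controls against 18193 genes, so these counts cannot be compared as shares. Signal near background limits both genes in resting cells.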
